A study of Mus musculus with 4 samples.

Results

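Mouse repeats of the ERVK class that are annotated as long terminal repeats were examined in adult testis, leaving out the RLTR10 family, the IAP elements and the internal (-int) sequences. They were selected by name alone from the table of read counts: features of the ERVK class on either strand whose name holds no -int and starts neither with IAP nor with RLTR10. The rule gave 190 of the 25745 rows of the table, 95 of 699 repeat features in sense and 95 of 699 in antisense orientation. These rows stand for 96 elements, of which 94 were listed on both strands, RLTR43A only in sense and BGLII_Mus only in antisense. Each row sums the reads of all genomic copies of an element that carries this name.

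Total testicular RNA, depleted of ribosomal RNA, was sequenced strand-specifically at postnatal day 60 in 4 libraries, 2 from Nef-sp-/- mice and 2 from Nef-sp+/- mice, whose libraries are called mutants and controls below. Nef-sp, listed as 2610020H08Rik and also known as Rexo5, encodes an RNA exonuclease of the testis. The labels give the strain as C57Bl/6J. All mice carried the same 23 bp out-of-frame deletion, made by injecting Cas9 nickase with paired guide RNAs into C57Bl/6J embryos, and the line was set up by mating founders to C57Bl/6J Rj males. It was present on both alleles of the mutants and on a single allele of the controls, so that no library came from mice with an intact pair of alleles. The labels do not say whether the libraries of a genotype came from separate animals, and p-values therefore measure only the spread between these libraries.

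Long terminal repeats (LTRs) are the ends of endogenous retroviruses, remnants of retroviruses fixed in the germ line. An LTR holds the viral promoter and polyadenylation signal, and recombination between both ends of a provirus leaves a solitary LTR behind, so that most LTR copies in the mouse genome stand without the viral genes. ERVK elements are related to betaretroviruses and include the mobile IAP and ETn/MusD elements of the mouse. DNA methylation, histone H3 lysine methylation through TRIM28 and SETDB1, and, in male germ cells, PIWI proteins with piRNAs are known to silence them. A sense read follows the annotated strand of the element and could start in its own promoter or run through it from another transcript. Antisense reads run against that strand.

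The libraries held between 20659865 and 34442517 counted reads. Replicates differed by more than counting error alone, as chi-square over its degrees of freedom was 3.23 between the controls and 4.48 between the mutants for the sense members. The targeted gene had 1843 and 1693 normalized counts in the controls and 407 and 497 in the mutants, a log2 fold change of -1.97 ± 0.09 (SE). It was the only gene called among 10728 gene exon features (edgeR, adjusted p = 4.1e-06), or 0.00932% of them. All 6 germ cell markers were listed, with summed normalized counts of 248932 and 304428 in controls and 303750 and 299462 in mutants, while the blood marker Hbb-b1 stayed between 10.6 and 26.1 normalized counts. Of the germ cell markers, Tnp1 lay above and Ddx4 below without overlap, and the others overlapped. Of 5 Leydig cell markers, Cyp17a1 and Cyp11a1, enzymes of steroid synthesis, had log2 fold changes of -0.27 and -0.35, with both mutants below. Star, Hsd3b1 and Insl3 had 0.08, 0.15 and 0.18, with overlap, and none of the 5 passed the test. The summed level of that list was 17486 and 17369 in controls against 16545 and 13932 in mutants. Sums of the 4 listed Sertoli cell markers, 913 and 980 against 878 and 886, also lay below in both mutants. Of these genes only Wt1 did so, with 578 and 651 against 572 and 570, while Sox9, Gata4 and Dhh overlapped. Sums of 2 peritubular markers lay below as well, with 1261 and 1226 against 1082 and 1183. There Acta2 lay below and Myh11 overlapped. The 3 macrophage markers overlapped, with 84.0 and 95.1 against 90.1 and 84.0. How often both mutants lay below over all genes was not counted. In whole testis, fewer cells of a type and less RNA per cell cannot be told apart, and the part of cell composition in the values below was not tested.

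In sense orientation, the 95 members took 0.826% and 0.769% of the repeat sense reads in the controls and 0.825% and 0.872% in the mutants. The means were 0.798% ± 0.040 and 0.849% ± 0.033 (SD, n = 2), and the libraries of the genotypes overlapped. In antisense orientation the share was larger, but it was a share of a category with fewer reads. The members took 3.73% and 3.88% of the repeat antisense reads in controls and 3.64% and 3.56% in mutants, where both mutants lay below. As a share of all reads in the table, the antisense members took 0.0762% ± 0.0047 in controls and 0.0789% ± 0.0073 in mutants (SD, n = 2), with overlap, so that the order depended on the denominator. On that scale the sense members took more, 0.117% ± 0.0080 in controls and 0.123% ± 0.0080 in mutants (SD, n = 2), also with overlap.

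The reads were concentrated in few elements. The 8 highest of the 95 sense members held 48.9% of the sense reads, and the 8 highest antisense members held 40.6% of the antisense reads, while the median member had 322 reads in sense and 303 in antisense over the 4 libraries. The table gives neither the length nor the copy number of an element, so these are read counts and do not rank elements by transcription per copy. Copies share sequence, and how reads matching several copies were counted is not stated, so that a member whose copies resemble those of another cannot be told apart from it.

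RLTR18 led the sense reads with 13.2% of them. It had 3843 and 3801 normalized counts in the controls and 3935 and 3708 in the mutants. These values overlapped, and the fitted log2 fold change of -0.00018 ± 0.079 (SE) had a 95% interval of -0.17 to 0.17. RMER6A came next with 2310 and 1641 normalized counts in controls and 1987 and 2827 in mutants. It was the least even of the 8, with the lowest value in a control and the highest in a mutant, and its log2 fold change was 0.29 ± 0.16 (SE; edgeR, adjusted p = 0.998). Without mutant replicate 1 the value of RMER6A became 0.52 and passed the test (edgeR, adjusted p = 2.5e-05). In that fit the mutants are a single library assumed to vary like the controls, and 10 repeat sense features were called.

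RLTR9D had 1553 and 1535 normalized counts in controls and 1652 and 1594 in mutants. RLTR9C had 1266 and 1452 against 1419 and 1307. Both belong to the RLTR9 elements, known from embryonic stem cells, where copies of some of them lie at enhancers. RLTRETN_Mm, the LTR of the mobile ETn and MusD elements, had 1342 and 1502 normalized counts in controls and 1644 and 1373 in mutants. RLTR19 had 1321 and 1385 against 1349 and 1295. The last of the 8 were RMER elements, whose name stands for medium reiterated repeats of rodents. RMER12 had 1236 and 1228 normalized counts in controls and 1325 and 1295 in mutants. RMER16 had 1038 and 1078 against 1189 and 946. Among these 8, the genotypes separated for RLTR9D and RMER12, by log2 fold changes of 0.07 and 0.09 that were about the size of their standard errors of 0.081 and 0.083.

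A different set of elements led the antisense reads. RLTR9E was highest, with 1551 and 1888 normalized counts in controls and 1964 and 1603 in mutants, and RLTR13D6 followed with 1010 and 987 against 1055 and 1011. RLTRETN_Mm, with 974 and 1045 against 981 and 941, and RMER12, with 576 and 565 against 608 and 557, were the only elements among the 8 highest on both strands. RLTR15 had 948 and 954 normalized counts in controls and 885 and 952 in mutants, and RMER19A had 869 and 921 against 876 and 891. Differences between genotypes were within the range of the replicates for these elements except RLTR13D6, whose mutant values lay above by a log2 fold change of 0.05 ± 0.099 (SE). RMER4B had 617 and 713 normalized counts in controls and 766 and 755 in mutants, also above without overlap. RMER20B had 571 and 795 against 741 and 632, so that its mutant values lay between those of the controls.

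**Figure D1:**
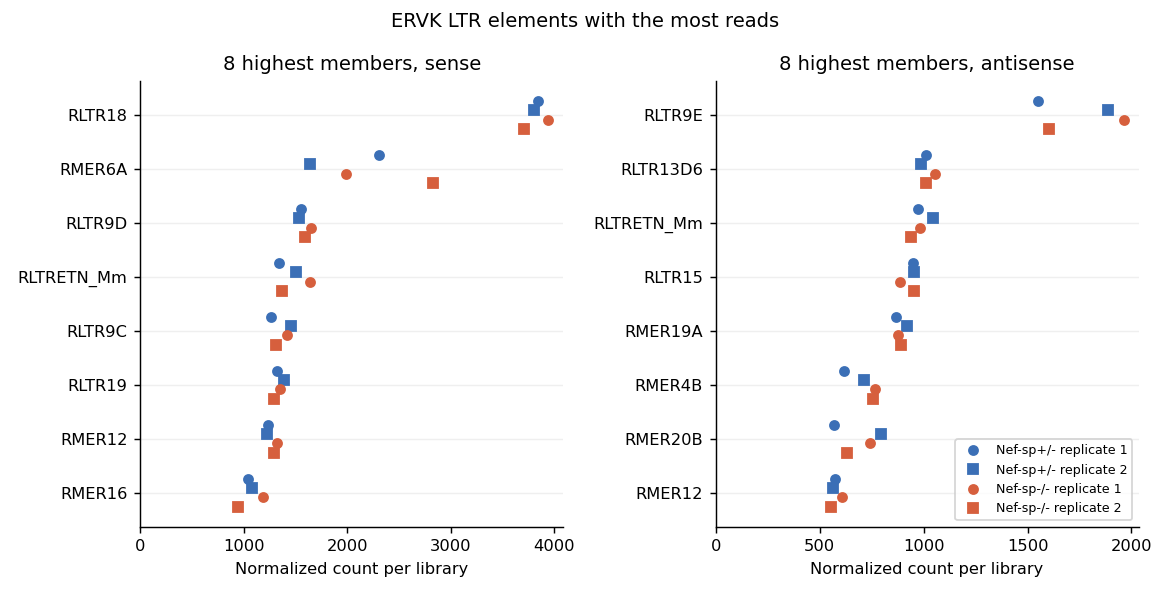
Normalized counts (x axis, linear, from 0) of the 8 ERVK LTR elements with the most sense reads (left) and antisense reads (right), with a point for each of the 4 libraries, blue for the Nef-sp+/- controls and orange for the Nef-sp-/- mutants. RLTR18 lies between 3708 and 3935 in all libraries, while RMER6A spreads from 1641 to 2827 without separating the genotypes.

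The orientation of the reads differed far more between elements than between genotypes. The sense share, the sense reads of an element as a percentage of its sense and antisense reads together, had a median of 55.8% ± 0.09 in controls and 55.9% ± 5.44 in mutants (SD, n = 2) over the 92 elements with at least 20 reads. The larger spread in mutants came from medians of 59.8% and 52.1% in the libraries, against 55.8% and 55.9% in controls. Single elements ran from 1.59% to 99.8%. Of 85 elements with at least 100 reads, 45 were above 50% in each of the 4 libraries, 36 were below it in each, and 4 touched or crossed it. A share between 40% and 60% was found for 13 of them, while 9 were above 95% and 7 below 5%. Over the 47 elements with at least 1000 reads, the share of an element moved by a median of 5.0 percentage points between its lowest and highest library, and at most by 13.0 points, for RLTR21.

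**Figure D2:**
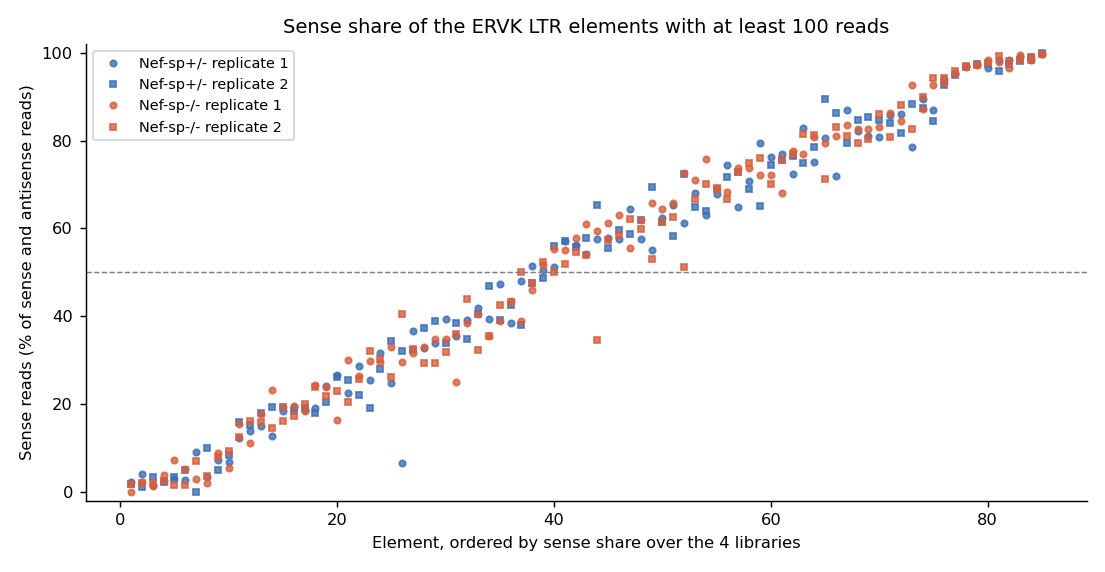
Sense share (y axis, percent of sense and antisense reads) of the 85 ERVK LTR elements with at least 100 reads, ordered along the x axis by their share over all libraries, with a point for each of the 4 libraries and a dashed line at 50%. The elements cover the scale from 1.59% to 99.8%, 45 lie above the line in all libraries and 36 below it.

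At the sense end, RLTR9C had 5484 sense reads and 10 antisense reads, a sense share of 99.8% with a 95% Wilson interval of 99.7% to 99.9%. Wilson intervals here cover counting error only. RLTR9D followed with 98.7%, from 6307 sense and 82 antisense reads, then RLTR20D with 98.7%, from 2128 and 29, and RLTR19A with 97.6%, from 1017 and 25. None of these 4 elements fell under 96.6% in any library. RLTR18, the element with the most sense reads, had a share between 96.8% and 97.0% in all libraries.

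At the antisense end, RLTR13D3 had 18 sense and 1116 antisense reads, a sense share of 1.59% (Wilson interval 1.01% to 2.50%). RLTR44C had 12 and 556 (2.11%), RLTR19C 17 and 743 (2.24%), and RLTR9A2 45 and 1618 (2.71%). None of these 4 exceeded 4.12% in any library. For RLTR13D3, mutant replicate 1 held no sense read at all.

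Among elements above 95% or below 5%, the name stems RLTR9, RLTR13, RLTR19 and RLTR44 were present at both ends. RLTR18, RLTR20D, RNLTR23 and RLTR31B_Mm had no element of their stem at the other end. For RLTR20D this rests on the cut, as RLTR20A lay at 5.0% itself. Within RLTR9, the 8 elements ran from 2.71% for RLTR9A2 and 24.7% for RLTR9F through 33.1% for RLTR9E and 53.4% for RLTR9A to 98.7% for RLTR9D and 99.8% for RLTR9C. Within RLTR19, RLTR19 and RLTR19A had 97.5% and 97.6% and RLTR19C 2.24%. RLTR44A and RLTR44B had 97.3% and 97.5% against 2.11% for RLTR44C.

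The RLTR13D elements, of which RLTR13D5 is known for copies that act as enhancers in trophoblast stem cells, were also split. RLTR13D2 stood at 95.3%, RLTR13D1 at 61.7%, RLTR13D5 at 34.7%, RLTR13D6 at 19.1% and RLTR13D3 at 1.59%. Among the RMER6 elements, RMER6A had 85.2% sense reads while RMER6B, RMER6C and RMER6D had 14.2%, 7.66% and 7.02%. Of 19 stems with more than 1 element of at least 100 reads, 14 held elements on both sides of 50%, and in 9 the elements were more than 50 percentage points apart.

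**Figure D3:**
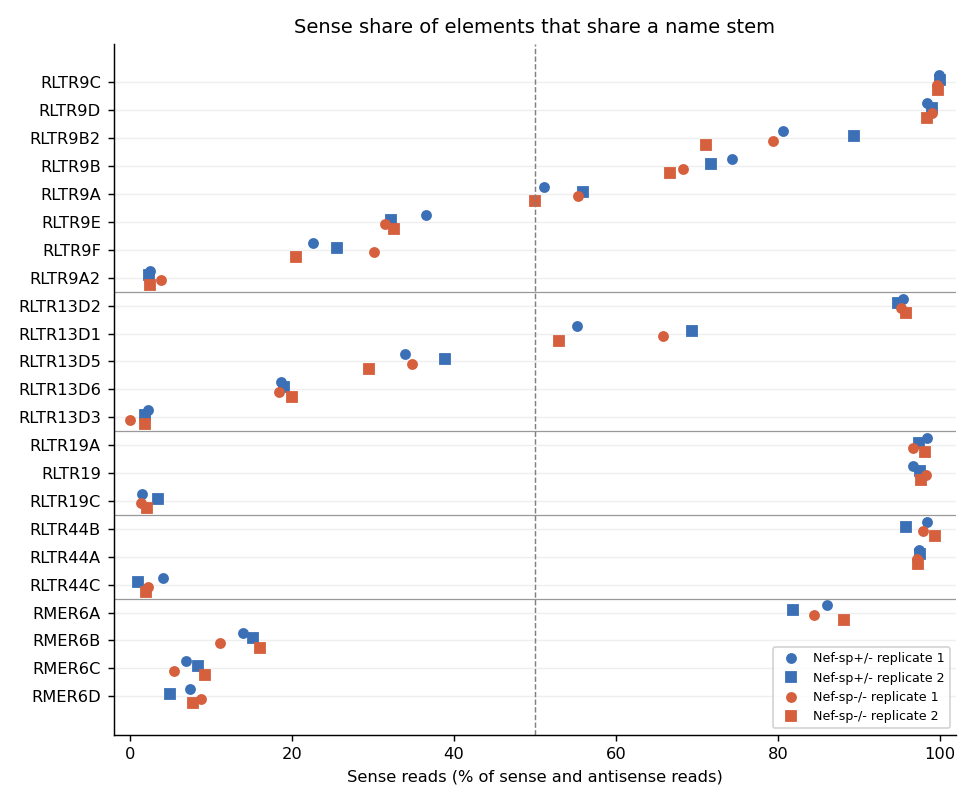
Sense share (x axis, percent of sense and antisense reads) of the RLTR9, RLTR13D, RLTR19, RLTR44 and RMER6 elements, separated by horizontal lines, with a point for each of the 4 libraries and a dashed line at 50%. Within RLTR9 the elements run from 2.71% to 99.8%, while the libraries of RLTR9B2 run from 71.2% to 89.4% and those of RLTR13D1 from 53.0% to 69.3%.

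Elements of RLTR20 also stood far apart, from 5.0% for RLTR20A through 38.9% for RLTR20C and 62.6% for RLTR20B3 to 98.7% for RLTR20D. In RMER17, only RMER17D2, with 14.0%, was mainly antisense, while RMER17D had 73.5% and RMER17A2 83.8%. RMER19A, among the highest antisense members, had 22.3% and its relative RMER19C 62.3%. Not every stem was split. Both RMER13 elements were mainly sense, RMER13A with 88.3% and RMER13B with 82.3%. Both RMER4 elements were mainly antisense, RMER4A with 21.0% and RMER4B with 34.8%. RLTRETN_Mm, with 5868 sense and 3964 antisense reads, had a share of 59.7% and stayed between 57.6% and 63.0% in the 4 libraries. Over the 94 elements listed on both strands, the sense and antisense levels had a Spearman correlation of 0.42, in which both values of an element come from the same libraries and the same copies. Among other ERVK features, the median sense share in controls was 62.1% ± 0.42 for 28 internal sequences, 41.4% ± 2.60 for 10 IAP LTRs and 73.1% ± 0.32 for 8 RLTR10 elements (SD, n = 2). Over all 618 repeat elements with at least 20 reads, members included, that median was 56.3% ± 0.61, close to that of the members. Single elements there ran from 0.018% to 99.99%. A share above 60% was found for 284 of the 618 and 40 of the 92 members. A share under 40% was found for 193 and 37. The wide spread was thus shared by repeats in general.

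The comparison of genotypes asked whether loss of the exonuclease changed these elements. In sense orientation, no member passed the test. Of the 95 members, 80 passed the filter on low counts, and the other 15 had at most 34 reads over all libraries. By edgeR with an adjusted p threshold of 0.05, 0 of the 80 were higher and 0 were lower in mutants. Without adjustment 3 had a p under 0.05, and DESeq2 also called 0. The background was 4 of 578 repeat sense features higher, or 0.692%, and 0 lower, or 0.0%. The 4 were RLTR10B2, RLTR10B and RLTR10-int, all of the excluded family, and the satellite GSAT_MM. The median log2 fold change of the members was 0.05, with 51 above and 29 below 0, beside 0.01 over all 578 features.

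The log2 fold changes of the sense members ran from -0.92 to 0.60, and their median absolute value was 0.11, beside 0.082 over all features and a median standard error of 0.16 among the members. Of the 33 tested members with at least 200 normalized counts, the log2 fold changes were between -0.23 and 0.29, and 31 had a 95% interval within -0.5 to 0.5. Over all 80 tested members, 43 intervals lay within -0.5 to 0.5 and 71 within -1 to 1.

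Both mutants lay above both controls for 19 of the 80 members (23.75%), beside 14.0% of all repeat sense features, and below for 9 (11.25%), beside 15.6%. With each library scaled to its total over all categories, 16 members (20%) lay above, beside 15.6% of all repeat sense features. Then 5 (6.25%) lay below, beside 11.1%. The largest difference among members with a mean of at least 50 normalized counts was that of RLTR21, which had 67.6 and 61.5 normalized counts in controls and 104 and 90.4 in mutants. Its log2 fold change was 0.60 ± 0.17 (SE; edgeR, unadjusted p = 0.0042, adjusted p = 0.290), the smallest adjusted p of the members. RMER4A had 67.6 and 63.6 normalized counts in controls and 91.8 and 81.6 in mutants, with a log2 fold change of 0.41 ± 0.17 (SE; edgeR, unadjusted p = 0.035, adjusted p = 0.887). In both elements the genotypes were separated by more than the distance between replicates.

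RLTR13B1, RMER17A and RLTR40 followed with log2 fold changes of 0.34, 0.27 and 0.26, and in each the nearest libraries of the genotypes were close. RLTR13B1 had 65.4 and 49.0 normalized counts in controls and 68.0 and 73.8 in mutants. RLTR40 had 149 and 126 against 150 and 177, and RMER17A 81.1 and 68.8 against 96.6 and 82.7. On the other side, both mutants of RLTR44B and RLTR19A lay clear of the controls. RLTR44B had 200 and 185 normalized counts in controls and 162 and 158 in mutants, a log2 fold change of -0.26 ± 0.14 (SE). RLTR19A had 276 and 269 against 237 and 226, a log2 fold change of -0.23 ± 0.12 (SE). RMER17D, RLTR46 and RLTR12B lay below by log2 fold changes of -0.16, -0.15 and -0.11, and in RMER17D the nearest libraries, with 109 and 108 normalized counts, almost touched. None of these 8 values had an unadjusted p under 0.05. The third member that did, chosen after its value was seen, was RLTR20B1, with 15.8 and 24.1 normalized counts in controls and 11.9 and 9.92 in mutants (log2 fold change -0.92 ± 0.40, SE). It rests on 66 reads in all.

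In antisense orientation, 79 of 95 members passed the filter and again 0 were higher and 0 lower (edgeR, smallest adjusted p = 0.99965), with 3 under an unadjusted p of 0.05 and 0 called by DESeq2. The background over 553 repeat antisense features was 0.0% higher and 0.0% lower. The median log2 fold change was 0.02, beside 0.01 over all features, with 43 above and 36 below 0 and a range from -0.55 to 0.70. Mutants lay above without overlap for 12 members (15.2%), beside a background of 11.4%, and below for 5 (6.33%), beside 12.8%. With each library scaled to its total, a count added after seeing the data, 9 members lay above (11.4%), beside 12.1%. Then 5 lay below (6.33%), beside 8.5%.

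RLTR40, among the sense members above as well, had the largest difference among the antisense members with at least 50 normalized counts, from 139 and 142 in controls to 180 and 189 in mutants. Its antisense log2 fold change was 0.39 ± 0.16 (SE; edgeR, unadjusted p = 0.026, adjusted p = 0.99965). RLTR44C had 103 and 141 normalized counts in controls and 157 and 155 in mutants, a log2 fold change of 0.34 ± 0.19 (SE). RLTR25B, RMER4B and RLTR20C had log2 fold changes of 0.27, 0.19 and 0.16. Only 3 members of this level lay below without overlap. They were RLTR27, with 73.3 and 65.9 against 61.9 and 56.3 normalized counts, RLTR26 and RLTR9F, with log2 fold changes of -0.23, -0.17 and -0.11. The other members under an unadjusted p of 0.05, RLTR12A and RLTR31B_Mm, were chosen after their values were seen. RLTR12A had 22.2 and 18.7 normalized counts in controls and 35.2 and 30.8 in mutants, and RLTR31B_Mm had 22.2 and 19.5 against 40.05 and 27.6.

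**Figure D4:**
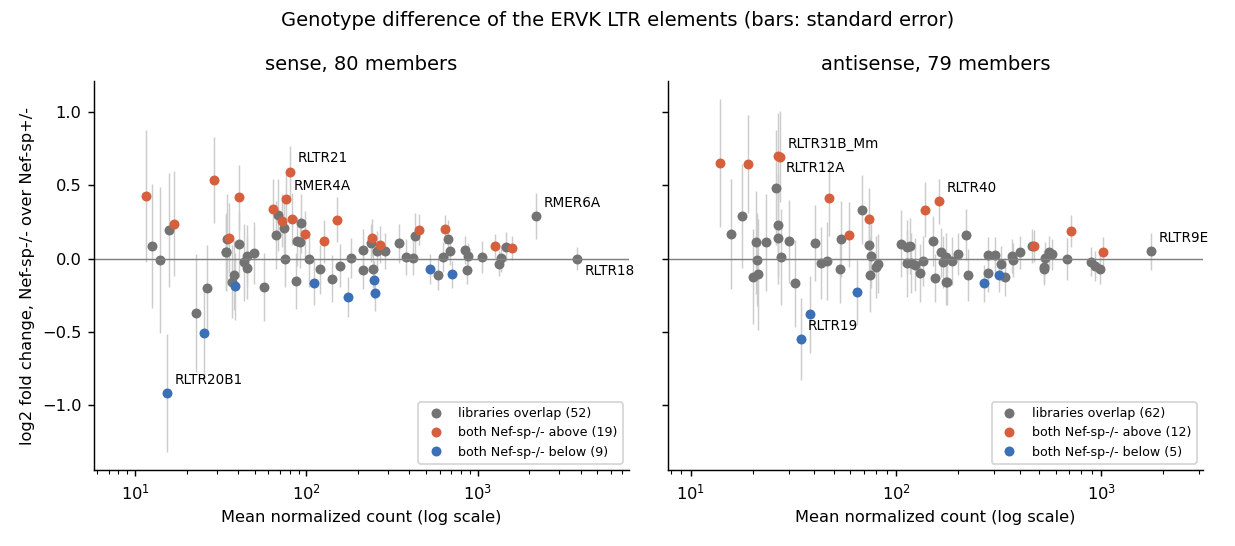
Log2 fold change of mutants over controls (y axis, bars are standard errors) against the mean normalized count (x axis, log scale) for the 80 sense and 79 antisense members that passed the filter. Points are orange where both mutants lay above, blue where both lay below and grey where the genotypes overlapped. The spread narrows toward high counts, and none of the points passed the test.

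**Figure D5:**
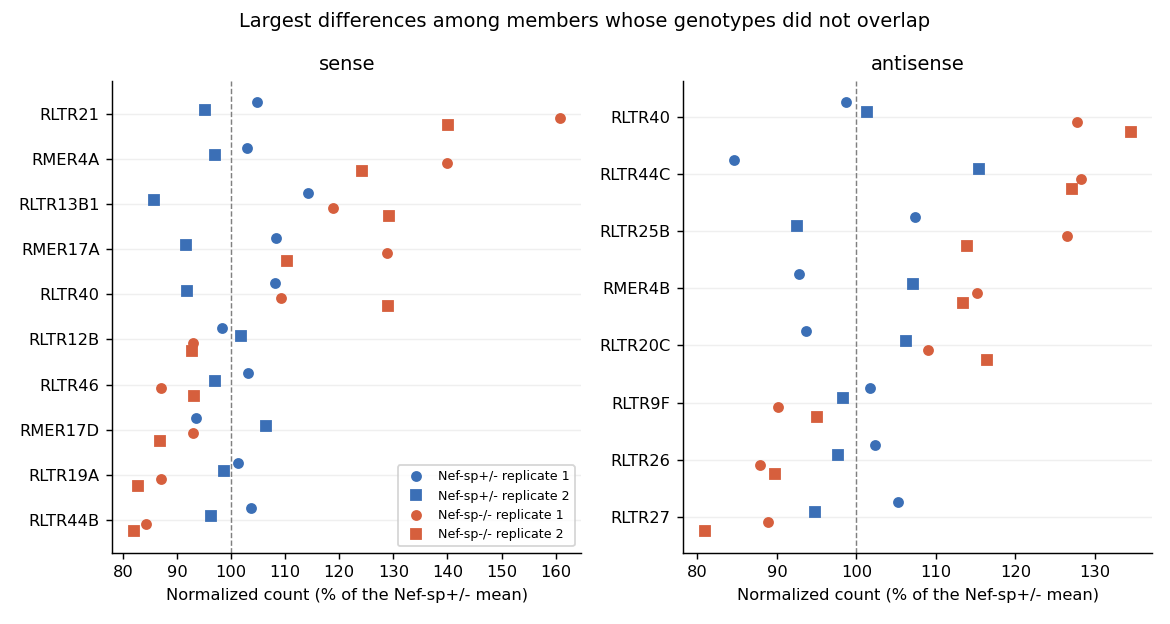
Normalized count of each library as a percentage of the control mean of the element (x axis, which does not start at 0), for the members with a mean of at least 50 normalized counts and the largest differences without overlap, in sense (10 elements, left) and antisense (8 elements, right). RLTR21 and RMER4A in sense and RLTR40 in antisense stand clear of their controls, while several others have nearly touching libraries.

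Of 69 elements tested on both strands, 36 overlapped on each. RLTR40 and RLTR12A had their mutants above on each strand, 14 elements only in sense and 7 only in antisense, with overlap on the other strand. None had them below on each, while 5 lay below only in sense and 3 only in antisense, with overlap on the other. RLTR27 and RMER17A lay above in sense and below in antisense. The same count on both strands together was not made over all repeat features. On each strand alone, 14.0% of all tested repeat features lay above and 15.6% below in sense. In antisense these shares were 11.4% and 12.8%. The test of the difference itself, the change of the sense to antisense ratio between genotypes, called 0 of the 69 members and 0 of all 486 features (0.0%), with 1 member and 19 features under an unadjusted p of 0.05 (edgeR). DESeq2 was not run for this test. The member was RLTR21, with sense shares of 25.4% and 19.0% in controls and 29.8% and 32.0% in mutants. Its ratio changed by 0.67 ± 0.25 on the log2 scale (SE; edgeR, unadjusted p = 0.024, adjusted p = 0.936). RLTR21 antisense counts, 195 and 267 in controls against 249 and 185 in mutants, overlapped. RMER4A, with sense shares of 19.2% and 18.0% against 24.4% and 23.8%, and RLTR11A2, with 57.1% and 57.1% against 55.0% and 51.8%, came next with log2 changes of 0.45 and -0.25.

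By name, the 22 RMER elements were all tested in sense and had 18 positive and 4 negative log2 fold changes, with a median of 0.05, 8 above and 1 below without overlap. Over all 578 repeat sense features, 299 were positive and 279 negative, 81 lay above and 90 below. With each library left out in turn, between 14 and 17 of the RMER elements were positive. In antisense the same 22 had 9 positive and 13 negative values, a median of -0.01, and 1 above and 1 below. That median was 0.03 with each library scaled to its total or without mutant replicate 2. It was 0.04 in the single fit over all categories and 0.0049 without control replicate 2. Of the 11 tested RLTR13 elements in sense, 7 were positive and 4 negative, with a median of 0.10 that turned to -0.13 without mutant replicate 2, and 1 lay above and 2 below. Of the 13 in antisense, 9 were positive and 4 negative, with 3 above. All 13 were positive with library totals and in the single fit over all categories. With library totals the median log2 ratio over all antisense features was also higher, at 0.05 against 0.01. Of the 8 RLTR9 elements in sense, 4 were positive and 4 negative and 2 lay above, and of the 7 tested in antisense 6 were positive, or between 4 and 5 with each library left out. Of the elements from RLTR44 to RLTR51, 2 of 4 tested in sense and 1 of 3 tested in antisense were positive, and both medians changed sign when a library was left out. Both tested BGLII elements were positive in sense, with a median of 0.11 that was 0.03 without mutant replicate 2. In antisense 2 of 4 were positive, with a median of -0.05 that turned to 0.19 without control replicate 1. RLTRETN_Mm overlapped on both strands, with log2 fold changes of 0.08 and -0.07, the first turning to -0.05 without mutant replicate 1. Of the remaining 32 sense members, 17 were positive and 15 negative with 6 above and 4 below, at a median of 0.01 that turned to -0.01 without control replicate 1, and of the remaining 29 antisense members 16 were positive and 13 negative with 6 above and 3 below.

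Beside the members, the 8 RLTR10 elements had a median sense log2 fold change of 0.36, with 3 called and 5 above without overlap (0 called with library totals, in the single fit over all categories and without control replicate 1, at medians of 0.37 to 0.39), the 28 ERVK internal sequences a median of 0.04 with 0 called, and the 11 IAP LTRs a median of 0.07 with 0 called (edgeR; 5 internal sequences and 1 IAP LTR under an unadjusted p of 0.05, and 0 of either called by DESeq2). Without mutant replicate 2, the median of the IAP LTRs turned to -0.02. The difference between these groups was not tested. Several members have an internal sequence of the same name, the part of the provirus that lies between its LTRs and carries the viral genes. Mean normalized sense counts were 3822 for RLTR18 and 85.8 for RLTR18-int, while for RLTR45 they were 98.2 against 12600 for RLTR45-int. RMER16 had 1063 and RMER16-int 5038, and RLTR19 had 1338 and RLTR19-int 1443. In antisense, RLTR19 had 34.3 and RLTR19-int 1757, so that the LTR was read almost only in sense and the internal sequence on both strands. Internal sequences and LTRs differ in length, and these values are read counts only. None of the internal sequences paired with a member by name passed the test in sense or antisense (edgeR, smallest adjusted p = 0.925).

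Genes of DNA methylation, of TRIM28 with SETDB1 and of the PIWI pathway, called silencing genes here, were read in the same libraries. The part of each gene in silencing ERVK elements was not tested. Of 27 such genes, 23 were listed and 22 tested, and 0 were called (edgeR, smallest adjusted p = 0.954), with 1 under an unadjusted p of 0.05 and 0 called by DESeq2. Their log2 fold changes were positive for 5 and negative for 17, with a median of -0.06 beside 0.00 over all genes tested. The lowest p was that of Uhrf1, which recruits the maintenance DNA methyltransferase, with 2155 and 1967 normalized counts in controls and 1837 and 1860 in mutants. Trim28, the corepressor that KRAB zinc finger proteins bring to LTRs, had 10114 and 9806 against 9430 and 8731. Piwil1, the PIWI protein of pachytene spermatocytes and round spermatids, had 6934 and 6544 against 5767 and 6457. Their log2 fold changes were -0.15, -0.13 and -0.14, and in each both mutants lay below without passing the test. Tdrkh, Ddx4 and Pld6 also lay below without overlap, by log2 fold changes of -0.15, -0.05 and -0.06. Mael lay above by 0.02, and the other listed genes overlapped. The shares of all genes with each sign or order were not counted. These orders therefore have no background beside them and are not read as a change of these genes.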

How the data were processed

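Per the labels and the study's methods, testicular RNA was sequenced for 50 cycles. After adapter trimming, the authors aligned the reads to mm9 by tools of their own without allowing mismatches, and deposited raw counts per feature, annotation category and strand. Tool versions and the handling of multiply matching reads are not given in the sources used here. The authors also deposited a mean normalized signal over the 4 libraries, a log2 fold change, and raw and adjusted p-values of their own DESeq2 comparison. None of these columns was used.

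Genotypes and replicate numbers were taken from the labels. Each category was fitted whole with edgeR 4.0.16 in R 4.3.3 (quasi-likelihood test, TMM, filterByExpr with a minimum count of 10, genotype as the only term), and p-values were adjusted by Benjamini-Hochberg within the category, with a threshold of 0.05. Normalized counts are counts over the effective library size, scaled to the mean of the 4 libraries. The strand balance was tested by edgeR as a strand by genotype term with the library as a block, over features with at least 10 counts in at least 2 libraries on each strand. Sense shares carry Wilson intervals at 95%. The scripts were tested on simulated counts. Figures were drawn with matplotlib 3.10.9.

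The members, gene lists and tests were chosen with earlier results of these data known. Named are members past the threshold, on each strand the 8 with the highest mean and the 5 with the largest change each way among those with a mean of at least 50 normalized counts and no overlap, the 4 elements with the highest and the 4 with the lowest sense share among those with at least 200 reads, the 3 with the smallest p of the strand balance, and the name groups. Of the silencing genes, those past the threshold or otherwise the 3 with the smallest p are named. Beyond that rule, the silencing genes whose genotypes did not overlap are named too. Exd1 and Henmt1 were matched through older symbols in RefSeq's list of genes, which served for names alone, and Piwil4, Tdrd5, Tdrd9 and Gtsf1 were not found in the gene exon list.

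Alternatives were DESeq2 size factors in edgeR, library totals over all categories, DESeq2 1.42.0, no filter, a minimum of 10 counts per library, all categories fitted together, a replicate block, and leaving out each library. Sequences and positions of the elements were not analysed here.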

Additional observations from a re-analysis of the deposited data

How the results depend on the processing

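Under the alternatives run, 0 antisense members, 0 strand balance members and 0 silencing genes were called, while calls over all features rose from 0 to at most 7 in antisense, from 0 to at most 3 in strand balance and from 1 to at most 252 in gene exons (without control replicate 2), and the targeted gene stayed between -2.11 and -1.83 on the log2 scale. Leaving out a library gave between 0 and 1 sense members called, beside between 0 and 10 of all repeat sense features. The lone sample of an arm is then assumed to vary like the other group. The 1 was RMER6A without mutant replicate 1, and RMER6A ranged from 0.0091 to 0.56 when each library was left out. Labels do not say what a replicate number shares. Deviations of same-numbered libraries correlated at -0.22 in sense and -0.31 in antisense. With the replicate block, 0 sense and 0 antisense members were called. Crossed numbers, a block added after seeing the data, gave 1 sense member, again RMER6A (0.28; edgeR, adjusted p = 0.0040), beside 14 of all repeat sense features against 4. The 14 held 2 ERVK internal sequences, against 0 in the main fit. Against library totals over all categories, 5 rather than 9 sense members lay below without overlap, and over all features 64 rather than 90 (a count added after seeing the data). As a share of all reads in the table, the mutants minus controls difference was 0.0054 percentage points in sense (0.051 of repeat sense reads) and 0.0027 in antisense (-0.21 of repeat antisense reads). The control median of the sense share was 56.7% with at least 100 reads. Of 36 named values, 27 kept their direction under all alternatives and 9, none above 0.082 in absolute log2, did not. Their values where the sign turned were, with the single fit over all categories, RLTR15 antisense 0.011, RLTR18 sense 0.030, RMER19A antisense 0.039 and RMER20B antisense 0.053. With library totals they were RLTR18 0.014, RMER19A 0.023 and RMER20B 0.049. RLTR18 was also 0.0046 without a filter, 0.0010 with at least 10 counts in every library and 0.00023 with the crossed block. RMER20B was also 0.0026 with DESeq2 size factors, 0.0055 with DESeq2, 0.018 with the replicate block and 0.0072 with the crossed block. With each library left out, the ranges were -0.046 to 0.037 for RLTR18 sense, -0.085 to 0.10 for RLTR9C sense, -0.11 to 0.19 for RLTR9E antisense, -0.055 to 0.20 for RLTRETN_Mm sense, -0.038 to 0.091 for RMER12 antisense, -0.16 to 0.16 for RMER16 sense, -0.059 to 0.012 for RMER19A antisense and -0.21 to 0.25 for RMER20B antisense. The cause was not tested. With 2 libraries per genotype, members of few reads had standard errors of up to 0.50 in sense and 0.44 in antisense.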
